A study of Homo sapiens with 4 samples.

Results

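The genes described here handle the sulfur of cysteine in 3 connected branches, namely transsulfuration (CTH and CBS), the oxidation of cysteine and cysteamine toward taurine (CDO1, ADO, CSAD and GADL1), and the metabolism of sulfide, thiosulfate and sulfite (MPST, TST, ETHE1 and SUOX). These 10 genes were chosen by their function, with earlier results of these data known, out of 20046 protein-coding genes in GENCODE release 44. For each, every called peak overlapping the gene body or the 10 kb on either side was collected. The 4 peak lists gave 33 merged regions in these windows, out of 80551 regions in the genome.

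The data are ATAC-seq libraries, in which a transposase cuts and tags open chromatin, from HepG2, a human hepatocellular carcinoma cell line of wild-type genotype. After 24 h of stabilisation, cells were either left untreated (control, 2 libraries) or given 5 µM tazemetostat dissolved in DMSO for 48 h (2 libraries). Tazemetostat inhibits EZH2, the enzyme that places the repressive H3K27me3 mark. Each library was made from 50000 cells, and all 4 come from 1 line. The labels call the controls untreated and do not say whether they received DMSO. Nothing in the labels says that the 2 libraries of a group came from separate cultures, so the tests measure the spread between these libraries, which may be technical.

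Transsulfuration carries sulfur from homocysteine to cysteine. CBS condenses homocysteine with serine to cystathionine, and CTH cleaves cystathionine to cysteine. In the liver, cysteine is then oxidised by CDO1 and decarboxylated by CSAD on the way to taurine, which is conjugated to bile acids. A smaller stream reaches taurine through cysteamine, which ADO oxidises, and GADL1 is a relative of CSAD that acts on acidic amino acids. Cysteine also yields hydrogen sulfide and sulfane sulfur. MPST and TST are related sulfurtransferases, ETHE1 is the mitochondrial dioxygenase that oxidises persulfide to sulfite, and SUOX converts sulfite to sulfate.

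Depth ranged from 17.2 to 26.6 M mapped tags, and the number of peaks was 26133 and 34768 in the control libraries and 55313 and 54157 in those given tazemetostat. The share of tags in peaks was 4.32% and 5.69% in the controls and 11.5% and 9.81% under tazemetostat. The peak caller was run with a fragment length of 200 bp in both controls and 144 bp in both tazemetostat libraries, and this setting and the treatment cannot be told apart. As a check of the cell line, the starts of APOA1, TTR, SERPINA1 and HNF4A, 4 of 6 hepatocyte markers, carried a peak in all 4 libraries, AFP did so in 2 and ALB in none. Of 6 markers of other cell types, 5 had no peak at the start in any library and CD68 had one in all 4. The values below are normalised tag counts, that is, tags within the called region per 10 M mapped tags. A library without a peak has no value at that position, which is not the same as a value of 0.

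Within the 10 windows, control replicates 1 and 2 had 12 and 16 peaks, and tazemetostat replicates 1 and 2 had 28 and 27. The means were 14 ± 2.83 and 27.5 ± 0.707 (SD, n = 2 each), a difference of 13.5 peaks that exceeded the spread within either group. A two-sided exact permutation test returned p = 0.33, and no lower value is attainable with 2 libraries a group. Relative to all peaks of a library, the member windows took nearly the same share throughout, at 0.0459% and 0.0460% in the controls and 0.0506% and 0.0499% under tazemetostat.

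Of the 33 regions, 9 were called in all 4 libraries and 10 in both tazemetostat libraries but in neither control, the latter termed tazemetostat-only. None was called in both controls alone. Of all merged regions of the genome, 13.7% were tazemetostat-only and 0.449% were control-only. The count of tazemetostat-only regions thus lay above the genome's share, while the absence of control-only regions was near it. CDO1 held 3 of the 10, and the authors chose that gene as a candidate partly by its gain in ATAC-seq. The members' share is therefore not independent of that choice. The other 14 regions were called in both tazemetostat libraries and 1 control (6 regions) or in 1 library (8 regions). Of the 33, 18 also lay within the window of another protein-coding gene, and 15 belonged to 1 such gene only.

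**Figure D1:**
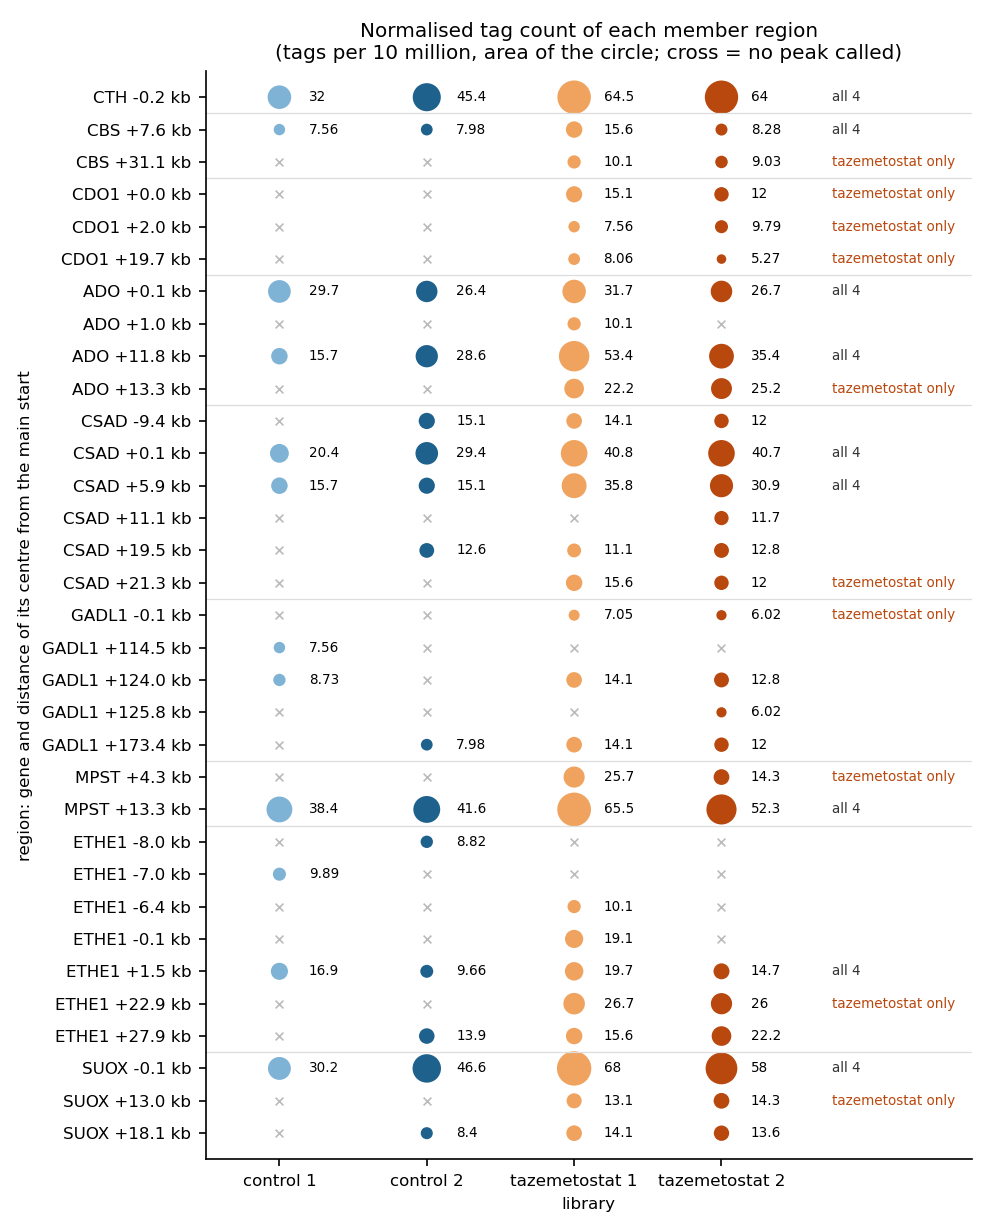
Normalised tag count (tags per 10 M mapped tags, circle area and printed value) of each of the 33 member regions (rows, by gene and distance of the region's centre from the gene's main start) in each library (columns), where a cross means that no peak was called. The 10 tazemetostat-only rows have crosses in both control columns and are spread over the genes rather than held by 1, while CTH has a single region called in all 4 libraries.

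By gene, 9 of 10 members, all but CTH, had a tazemetostat-only region in the window, with 1 region shared by MPST and TST. The same held for 32.4% of all protein-coding genes, whose windows had a median of 3 regions, as did those of the members. This count depends on the width of the window. Within 2 kb of the gene body, 4 members kept such a region (CDO1, CSAD, GADL1 and MPST), against 25% of protein-coding genes, and 3 of the 10 regions lay in or at the promoter of a neighbour, namely EGR2, PHLDB3 and IKZF4. At an annotated start of the gene itself (1 kb upstream to 100 bp downstream), 3 members had a tazemetostat-only region, CDO1, GADL1 and MPST, against 8.78% of protein-coding genes. The main start was called in all 4 libraries in 4 of the 10, CTH, ADO, CSAD and SUOX, against 31.3% of protein-coding genes. No peak lay at the main start of CBS, MPST or TST in any library, and 44.2% of protein-coding genes likewise lacked one.

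By median, the tazemetostat-only regions of the members were lower in fold but higher in tag count than all tazemetostat-only regions. Their values ran from 5.27 to 26.7, with a median of the mean of 13.6, against 10.7 for all tazemetostat-only regions. Their folds over the surrounding 10 kb ran from 4.15 to 8.98, with a median of 5.5, against 6.18 for all tazemetostat-only regions. The minimum for a call was 4, and 6 of the 10 had a fold under 5 in at least 1 library. The headers give a tag threshold of 14 or 16 tags, which at each library's depth is 8.14 and 6.72 tags per 10 M for the controls and 7.05 and 6.02 for the treated libraries. It was no strict limit on the listed values, since the lowest listed peaks had 6.40 and 5.04 in the controls and 5.04 and 4.89 in the treated libraries.

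The stretches just upstream of 6 member starts are shown, from starts open in every library, starts called under tazemetostat only and 1 start called in 1 library. They are cut from the RefSeq promoter windows of GRCh38.p14 (250 bases before to 50 after the start) so that no annotated exon is included, and are written in the direction of transcription. CTH (chr1:70411018-70411217, plus strand), ADO (chr10:62804470-62804719, plus) and SUOX (chr12:55997026-55997179, plus) were called in all 4 libraries. So was the CSAD start, which is not shown. CDO1 (chr5:115816660-115816909, minus) and GADL1 (chr3:30894662-30894911, minus) were tazemetostat-only, and ETHE1 (chr19:43527231-43527451, minus) was called in 1 library. Capitals mark matches to a CCAAT box or a GC box on either strand.
CTH: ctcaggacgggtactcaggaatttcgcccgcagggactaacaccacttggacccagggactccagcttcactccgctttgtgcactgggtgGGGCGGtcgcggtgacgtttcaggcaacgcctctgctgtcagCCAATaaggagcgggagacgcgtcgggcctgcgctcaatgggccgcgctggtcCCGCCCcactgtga
ADO: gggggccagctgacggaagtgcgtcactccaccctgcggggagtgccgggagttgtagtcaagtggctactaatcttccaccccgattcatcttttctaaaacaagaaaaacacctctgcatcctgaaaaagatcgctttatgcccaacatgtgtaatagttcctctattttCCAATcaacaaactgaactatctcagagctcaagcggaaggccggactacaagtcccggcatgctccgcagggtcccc
SUOX: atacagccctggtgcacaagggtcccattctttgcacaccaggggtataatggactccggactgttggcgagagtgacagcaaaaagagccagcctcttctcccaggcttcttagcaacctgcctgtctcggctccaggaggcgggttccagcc
CDO1: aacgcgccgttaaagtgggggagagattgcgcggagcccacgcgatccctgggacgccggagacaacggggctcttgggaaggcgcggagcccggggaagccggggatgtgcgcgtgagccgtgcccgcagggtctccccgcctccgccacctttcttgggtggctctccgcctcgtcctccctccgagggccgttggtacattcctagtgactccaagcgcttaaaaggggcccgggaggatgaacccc
GADL1: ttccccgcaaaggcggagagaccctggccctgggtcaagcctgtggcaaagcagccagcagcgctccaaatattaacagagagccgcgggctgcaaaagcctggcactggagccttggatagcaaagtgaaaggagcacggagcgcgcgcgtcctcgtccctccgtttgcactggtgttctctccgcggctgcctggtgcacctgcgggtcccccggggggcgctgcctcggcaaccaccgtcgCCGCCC
ETHE1: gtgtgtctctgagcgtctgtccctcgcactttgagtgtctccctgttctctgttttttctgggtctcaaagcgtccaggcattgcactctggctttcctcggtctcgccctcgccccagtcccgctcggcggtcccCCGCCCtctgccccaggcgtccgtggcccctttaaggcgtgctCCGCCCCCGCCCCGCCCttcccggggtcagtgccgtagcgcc

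RefSeq held 10 promoter windows for 8 of the members, and none for MPST and TST. CpG density overlapped between starts called in all libraries and tazemetostat-only starts. The ratio of observed to expected CpG was 0.915 for CTH and 0.919 for CDO1, close to each other although the first was called in all libraries and the second under tazemetostat only. It was 0.820 for ADO, 0.803 for CSAD, 0.821 for ETHE1, 0.751 for GADL1 and 0.431 for SUOX, against a median of 0.577 over 34943 promoter windows. In all 300 bases of the windows, CCAAT occurred in 5 of the 10 (CTH, ADO, SUOX and 2 of the 3 CBS windows), a match found in 34.6% of all promoter windows, and GGGCGG in 6 of 10 (44.9% of all). The antioxidant response sequence TGACNNNGC occurred in 1 CBS window and in ETHE1 (13.3% of all). HNF4 (CAAAGTCCA or CAAAGTTCA), CRE (TGACGTCA), ATF4-CEBP (TTGCATCA) and AP-1 (TGACTCA) matched none of the 10 windows on either strand, and they occur in 0.678%, 1.84%, 0.870% and 4.96% of all windows. The windows of CDO1 and CSAD held no match to any of these 7 motifs. A TGACTCA match and a TGACNNNGC match can overlap.

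CTH, which produces cysteine from cystathionine, had 1 region in its window of 48.6 kb, at chr1:70410528-70411609. It spans the start and runs over the 5′ UTR, the first coding exon and part of the first intron, and no other protein-coding gene shares it. The normalised tag counts were 32.0 and 45.4 in the controls and 64.5 and 64.0 under tazemetostat. Both tazemetostat values lay above both controls, at means of 64.3 ± 0.354 against 38.7 ± 9.48 (SD, n = 2 each). The rise was 0.74 on the log2(normalised tag count + 1) scale (SE 0.30), and the adjusted p from limma was 0.0524, short of the threshold of 0.05.

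CBS, the entry step of transsulfuration, had 2 regions. The first, chr21:43068038-43068469, lies in an intron at the start of an annotated shorter transcript, 7582 bp from the main start. It gave 7.56 and 7.98 in the controls and 15.6 and 8.28 under tazemetostat, and the second tazemetostat library was barely above either control (0.50, SE 0.32, limma adjusted p = 0.173). The second, chr21:43044575-43044934, lies beyond the 3′ end of the gene and was tazemetostat-only, with 10.1 and 9.03 in peaks of 300 bp.

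CBS values carry a particular uncertainty. The hg38 assembly holds a second copy of this locus on the same chromosome, chr21:6444869-6467513, which GENCODE marks as an artefact of the assembly. Of all 50-base words in the CBS body, 95.4% occur again with no mismatch in that part of chromosome 21, as do 94.8% of those around the main start. The share was 86.9% in the intronic region and 58.8% in the downstream region, against 0.317% in the neighbouring gene PKNOX1. No library had a peak within 10 kb of the second copy. How tags with several equally good positions were treated is not given in the sources used here, so the lack of a peak at the main CBS start does not show that it was closed, and the counts of both CBS regions are uncertain.

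**Figure D2:**
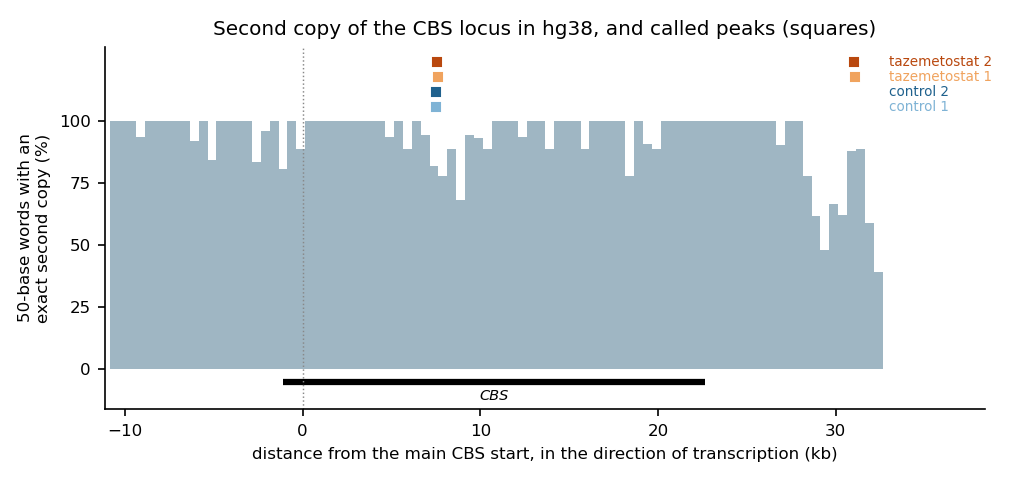
Percentage of 50-base words with an exact second copy (bars, bins of 500 bp) along the CBS window, by distance from the main start in kb, with the centre of each called peak (squares, 1 row per library). Nearly the whole window is duplicated. The bars at the region centres stand at 88.2% for the tazemetostat-only region at the far right and 82.0% for the region called in all 4 libraries. Over the exact bounds of these regions, which the bars do not follow, the shares are 58.8% and 86.9%.

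CDO1, the dioxygenase that commits cysteine to the taurine branch, had 3 regions, all of them tazemetostat-only. TST was the only other member without any region outside that set, and it had 1. Its start region, chr5:115816187-115817062, covers the 5′ UTR and first coding exon and gave 15.1 and 12.0. An intronic region at the start of another CDO1 transcript, chr5:115814488-115814924, gave 7.56 and 9.79. A region downstream of the gene, chr5:115796751-115797107, gave 8.06 and 5.27. None of the 3 had a peak in either control, and none lay in the window of another protein-coding gene. The folds over the local background were 4.53 and 4.48 at the start, close to the minimum of 4. The exact 95% intervals of the start values, for counting error only, were 10.2 to 21.6 and 8.24 to 17.0. None of the 3 remained tazemetostat-only when every library was held to the same number of peaks or to a local fold of at least 8.

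ADO, the cysteamine dioxygenase, is a gene without introns, and its start was open in all libraries. The region chr10:62804287-62805417 gave 29.7 and 26.4 in the controls and 31.7 and 26.7 under tazemetostat, where control replicate 2 had 2 peaks that were summed. The groups overlapped, with means of 28.1 ± 2.32 and 29.2 ± 3.54 (SD, n = 2 each). In a limma fit that admits such summed regions, its change was 0.05 (SE 0.30, adjusted p = 0.875), against a median of 0.71 over the 16430 regions of that fit, and 5.64% of them had a lower change. A short region within the ADO exon, chr10:62805568-62805868, was called in tazemetostat replicate 1 only, at 10.1.

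The other regions of the ADO window belong by position to EGR2, a zinc finger transcription factor whose gene follows. The EGR2 promoter region, chr10:62816153-62816939, is named for an annotated EGR2 start and lies within the EGR2 body. It gave 15.7 and 28.6 in the controls and 53.4 and 35.4 under tazemetostat. The groups did not overlap, and the change passed the threshold (1.00, SE 0.33, limma adjusted p = 0.0258). A tazemetostat-only region in the EGR2 body, chr10:62817832-62818286, gave 22.2 and 25.2. The only tazemetostat-only region counted for ADO is therefore inside a neighbour, 13339 bp from the ADO start.

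CSAD, the decarboxylase that makes hypotaurine, had 6 regions, more than any member but ETHE1. Its main start is shared head to head with the zinc finger gene ZNF740. The region there, chr12:53180276-53181287, gave 20.4 and 29.4 in the controls and 40.8 and 40.7 under tazemetostat (0.71, SE 0.30, limma adjusted p = 0.0591). A second region, chr12:53174742-53175382, lies in an intron, within 1 kb upstream of the start of another CSAD transcript. No annotated CSAD start lies inside this region, and it is termed the CSAD intronic start below only for short. It gave 15.7 and 15.1 in the controls and 35.8 and 30.9 under tazemetostat. These means of 15.4 ± 0.424 and 33.4 ± 3.46 (SD, n = 2 each) differed 2.17-fold, and the region rose by 1.06 (SE 0.29, limma adjusted p = 0.0146). Its peaks were 461 and 386 bp long in the controls and 562 and 574 bp under tazemetostat, and per kilobase of peak the change was 0.67 (limma adjusted p = 0.0161).

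In the distal part of CSAD, a tazemetostat-only region at chr12:53159326-53159862 covers coding exon and intron sequence and gave 15.6 and 12.0. It also lies at the start of a non-coding gene, ENSG00000257808. Of the remaining 3 regions of the window, chr12:53161115-53161657 had 12.6 in control replicate 2 and 11.1 and 12.8 under tazemetostat, so that the control value lay between the treated ones. The region chr12:53190180-53190555, in the body of ZNF740, had 15.1 in control replicate 2, above the 14.1 and 12.0 under tazemetostat. The third, chr12:53169671-53170065, was called in tazemetostat replicate 2 only, at 11.7.

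GADL1, the acidic amino acid decarboxylase, spans the longest window of the set, 188.5 kb, with 5 regions and no neighbour in reach. The start region, chr3:30894533-30894922, was tazemetostat-only with 7.05 and 6.02, in peaks of 300 bp that rest on 14 and 16 tags. These equal the tag thresholds in the headers of those libraries. Its folds over the local background were 8.88 and 8.62, and it was the one region of them with a fold of at least 8 in both libraries. A region in an intron, chr3:30770438-30770822, was called in control replicate 1 and both tazemetostat libraries at 8.73, 14.1 and 12.8, and a region past the 3′ end, chr3:30720975-30721457, in control replicate 2 and both tazemetostat libraries at 7.98, 14.1 and 12.0. In each, the tazemetostat values were above the 1 control value, and no test could be made. The other 2 regions were called in 1 library each. In a control, 1 of them lay within 1 kb upstream of the start of a GADL1 transcript, chr3:30780016-30780316, at 7.56.

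MPST and TST, the paired sulfurtransferases on chromosome 22, overlap at their 5′ ends and share most of their windows. Neither had a peak at its main start. The one region in both windows, chr22:37023819-37024276, lies inside MPST at the start of another MPST transcript, over coding exon and intron, and was tazemetostat-only with 25.7 and 14.3. The exact 95% counting intervals of these values, 19.1 to 33.8 and 10.1 to 19.6, overlap slightly. For TST this region lies at -4600 bp from the main start, which is upstream, and is the sole region of its window. MPST had a second region, chr22:37032638-37033379, beyond its 3′ end and at the start of the non-coding gene ENSG00000287236. It was called in all 4 libraries, with 38.4 and 41.6 in the controls and 65.5 and 52.3 under tazemetostat (0.54, SE 0.30, limma adjusted p = 0.123).

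**Figure D3:**
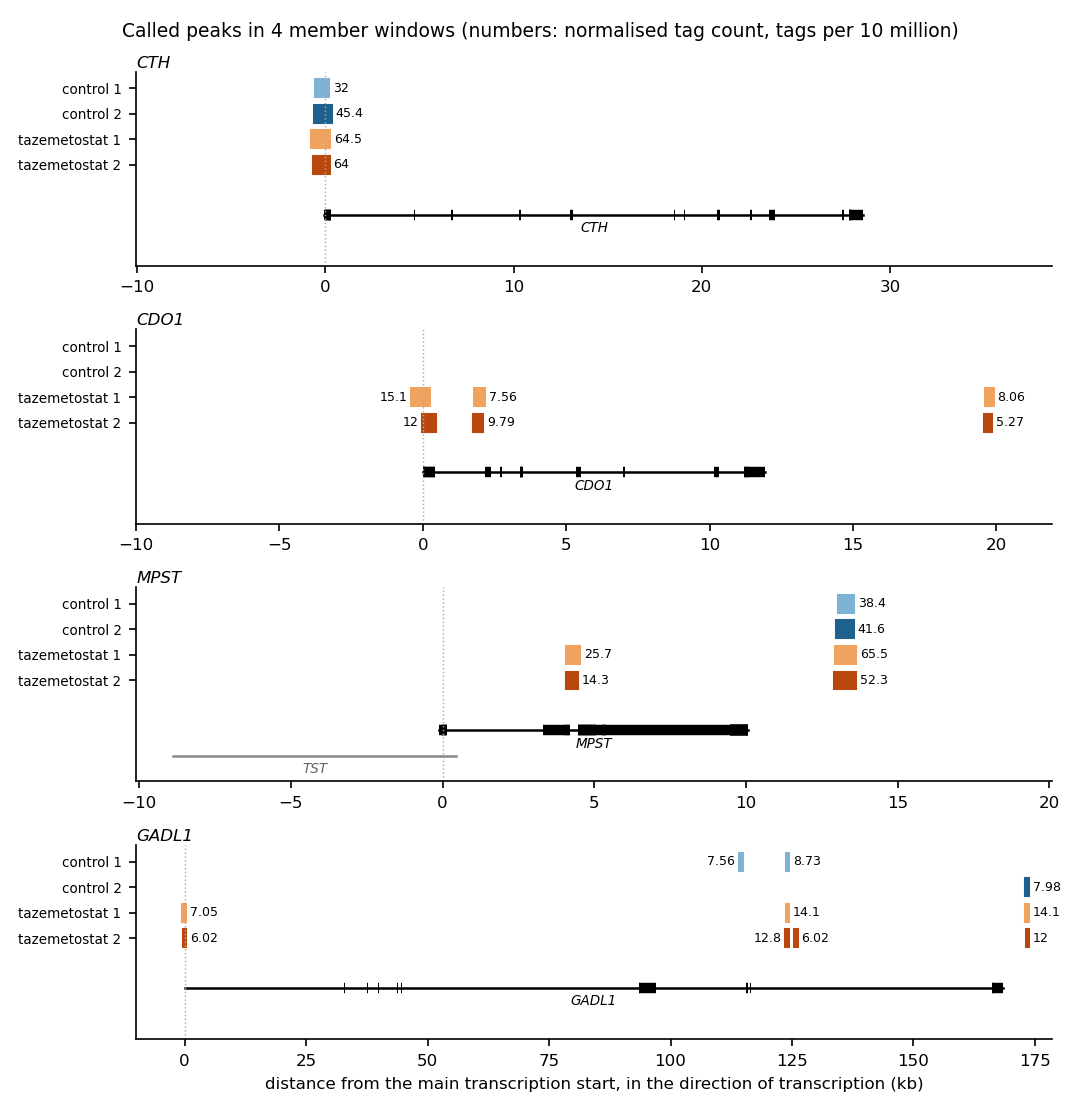
Called peaks (boxes, 1 row per library, with normalised tag counts in tags per 10 M) and genes (black for the member with exons of all its transcripts as thick parts, grey for the neighbour TST) in the windows of CTH, CDO1, MPST and GADL1, by distance in kb from the main start. CTH has a peak at its start in all 4 libraries, CDO1 and GADL1 have one at the start in both tazemetostat libraries only, and MPST has its first peak 4306 bp past the main start.

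ETHE1, the persulfide dioxygenase, had the most regions, 7, yet only 1 at its own start. That region, chr19:43527033-43527539, covers the 5′ UTR and first coding exon and was called in tazemetostat replicate 1 only, at 19.1. A later intron held a region called in all 4 libraries, chr19:43525391-43525929, which is also at a start of ZNF575, a zinc finger gene that overlaps ETHE1. The controls gave 16.9 and 9.66 and the tazemetostat libraries 19.7 and 14.7, so the groups overlapped (0.38, SE 0.32, limma adjusted p = 0.287). The tazemetostat-only region of the window, chr19:43503975-43504700, lies inside the neighbour PHLDB3 at an annotated start of that gene. It gave 26.7 and 26.0, the highest mean among the 10. The other 4 regions lay in the bodies of PHLDB3 and ZNF575. Of these, 1 was called in control replicate 2 and both tazemetostat libraries at 13.9, 15.6 and 22.2, and 3 were called in 1 library each with 8.82 to 10.1.

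SUOX, the sulfite oxidase, had a start region called in all 4 libraries, chr12:55996808-55997574, that covers the 5′ UTR and the first intron. It also falls in the window of RAB5B. Its values were 30.2 and 46.6 in the controls and 68.0 and 58.0 under tazemetostat. The groups did not overlap, and the change was 0.73 (SE 0.31, limma adjusted p = 0.0586). Both further regions of the window lie in IKZF4, a transcription factor gene. The one at chr12:56010027-56010526 lies at an annotated IKZF4 start inside the gene body and was tazemetostat-only with 13.1 and 14.3. The other, chr12:56015178-56015658, was called in control replicate 2 and both tazemetostat libraries at 8.40, 14.1 and 13.6.

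**Figure D4:**
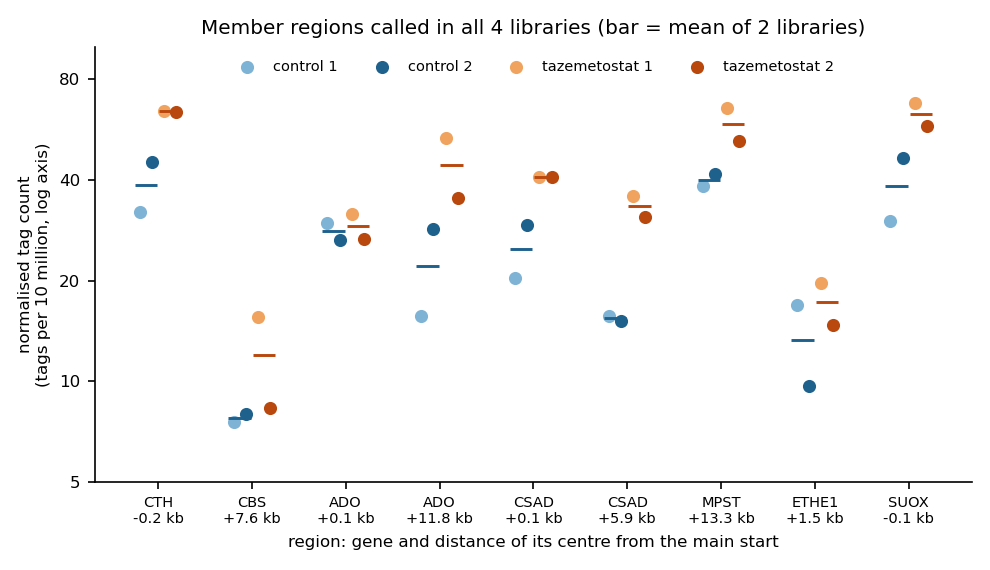
Normalised tag counts (tags per 10 M mapped tags, log axis) of the 9 member regions called in all 4 libraries, with 1 point per library and a bar at each group's mean. Both tazemetostat points lie above both control points except at the ADO start and the ETHE1 intron, where the groups overlap.

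The tazemetostat values lay wholly above the control values at 7 of the 9 regions, as they did at 81.4% of the 16430 regions of the genome called in all 4 libraries. Of the 9, 8 had exactly 1 peak in every library and could be tested with the 15383 such regions of the genome. In limma, 2 of the 8 rose under tazemetostat, the CSAD intronic start and the EGR2 promoter in the ADO window, against 42.7% of all tested regions. None fell, against 0.247% of all. At an unadjusted p under 0.05, 5 of the 8 were higher, against 58% of all. The median change of the 8 was 0.72, and that of all tested regions 0.70. The starts of CTH, CSAD and SUOX, at 0.74, 0.71 and 0.73, thus sat at the middle of the genome's distribution, with 54.2%, 51.0% and 52.9% of regions below them. The CSAD intronic start was farther up, with 85.8% of regions below it, and the ETHE1 intron was lowest, with 17.8% below it.

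Whether these regions rose depended on how the libraries were scaled. The changes above count tags per 10 M mapped tags. When each library was centred on its own median, the median of all tested regions moved from 0.70 to -0.06, and the member changes ran from -0.38 (ETHE1 intron) to 0.30 (CSAD intronic start), with none of the 8 past the threshold. The range of adjusted p for the CSAD intronic start over its 14 alternative fits was 0.00774 to 1.00, and 9 of the 14 called it. For the EGR2 promoter it was 3.5e-04 to 1.00, with 8 of 14. Without tazemetostat replicate 1 or 2, none of the 15383 tested regions passed, these included, with changes of 0.96 and 1.17 for the CSAD intronic start (limma adjusted p = 0.226 and 0.097) and of 0.71 and 1.29 for the EGR2 promoter (0.299 and 0.097). Without control replicate 1, 3237 of the 15383 regions passed as higher, and the EGR2 promoter, with a change of 0.59, did not (limma adjusted p = 0.170).

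**Figure D5:**
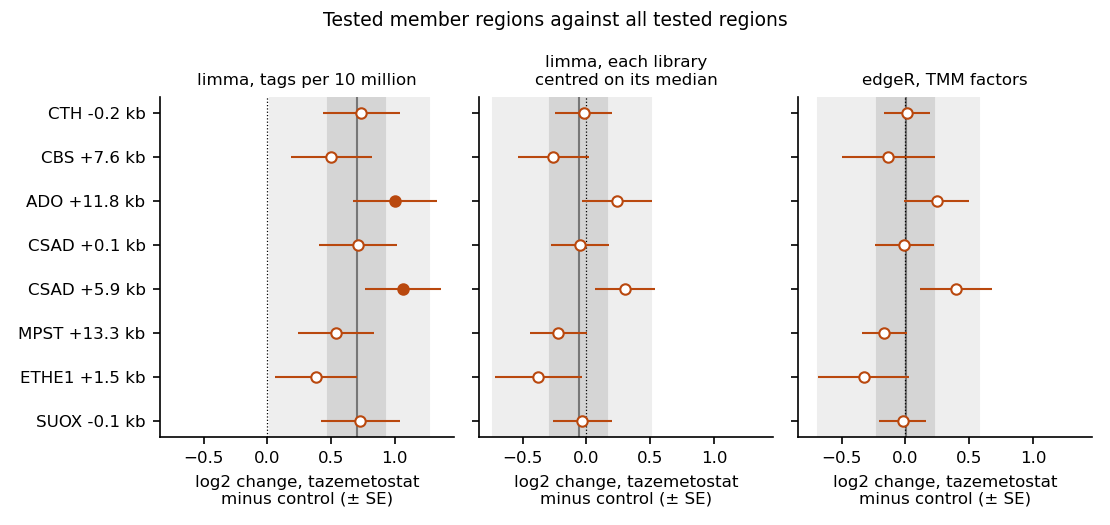
Log2 change (tazemetostat minus control, ± SE) of the 8 tested member regions under 3 scalings, with filled points for an adjusted p under 0.05, dark and light grey bands for the middle 50% and 90% of all tested regions, and a grey line at their median. The CSAD region at +5.9 kb (1.06) and the ADO-window region at +11.8 kb (1.00, the EGR2 promoter) are filled in the first panel only, and no point is filled in the other panels. The starts of CTH, CSAD and SUOX lie close to the genome's median in each panel.

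The pathway was extended by 10 further genes, namely SQOR, TSTD1, SELENBP1, GOT1, GOT2, KYAT1, KYAT3, FMO1, SLC6A6 and BAAT. They were chosen by function, also with earlier results of these data known. Their windows held 38 regions, of which 4 were tazemetostat-only (10.5%, against 30.3% for the members and 13.7% for the genome). Of the 38, 1 was control-only, against 0.449% of all merged regions. Tazemetostat-only regions were found in the windows of 3 of the 10 genes, GOT1, KYAT1 and SLC6A6, near the 32.4% of all protein-coding genes. In limma, 4 of their 13 tested regions rose, against 42.7% of all tested regions, and none fell. Their median change was 0.62, against 0.70 for all. The rises were in the windows of SQOR, the mitochondrial oxidase that begins sulfide oxidation (2 regions, 0.90 and 1.00), of KYAT3, a kynurenine and cysteine conjugate aminotransferase (0.87), and of BAAT, which joins taurine or glycine to bile acids (0.89). The windows of these genes overlap those of other protein-coding genes, and the gene to which each region belongs by position was not examined. After median centring, no tested region of the genome passed the threshold. The start of SQOR, SELENBP1, GOT1, GOT2 and KYAT3 was called in all 4 libraries, as was that of 31.3% of all protein-coding genes. That of KYAT1 was called under tazemetostat only, that of SLC6A6, the taurine transporter, in 1 library, and those of TSTD1, FMO1 and BAAT in none.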

How the data were processed

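Tags from 4 HepG2 ATAC-seq libraries were analysed as the peak lists deposited for each library. According to the labels and the methods, reads were trimmed by the authors (Trim Galore 0.6.6), placed on hg38 by Bowtie2 2.3.5.1 with inserts of up to 2000 bp, and turned into peaks for each library on its own by HOMER 4.11.1. Per the file headers, initial peaks of 300 bp were stitched into variable regions, at most 1 tag per bp was counted, a peak had to exceed its 10 kb surroundings 4-fold at a Poisson p-value of 0.0001, and the rate of false discoveries was set to 0.001 (the methods give another rate). Whether cut sites were shifted for the transposase is not given in the sources used here. The signal in the deposited lists, the normalised tag count, was scaled by the authors to 10 M mapped tags. The deposited findPeaks score is a count of tags in an initial peak and was not used here, and neither were the deposited p-value and the clonal fold ratio. The deposited fold ratio over the local background was used for filtering.

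Peaks overlapping by at least 1 bp were merged across libraries with pandas 2.3.3 and placed in GENCODE release 44 windows. Regions with exactly 1 peak per library were compared in limma 3.58.1 (R 4.3.3) on log2(normalised tag count + 1), which compresses changes where values are low, without a block, with Benjamini-Hochberg adjustment over all 15383 regions and a threshold of 0.05. The test was tried on simulated counts. Whole tags recovered from the normalised tag count (100% within 0.25 of a whole number) entered edgeR 4.0.16 and DESeq2 1.42.0 as alternatives. No molecular identifiers are named, so intervals cover counting error only. The members, gene lists, motifs and alternatives were chosen with earlier results of these data known. Named were all members, every region at a member start, in 1 group only or in all 4 libraries, and neighbours in which such regions lie.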

Additional observations from a re-analysis of the deposited data

How the results depend on the processing

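The 13.5 additional peaks in the member windows under tazemetostat kept their direction in every alternative run. The difference ranged from 2 when all libraries kept equally many peaks to 15.5 without control replicate 2. Leaving out 1 library could not reverse it, since both tazemetostat counts exceeded both control counts. At a local fold of at least 8 the difference was 4.5, and the exact permutation test gave p = 0.67, above the lowest attainable 0.33. The tazemetostat-only regions fell from 10 to 2, in 2 genes, at a local fold of at least 8, of which the CSAD intronic start joined because its control peaks were below that fold. With equally many peaks they fell to 3, in 4 genes, since MPST and TST share 1 region. They fell to 5, in 4 genes, both within 2 kb of the gene body and in the body alone. Of all coding genes, 10.7%, 12.5%, 25% and 22.5% had such a region under these 4 settings. Control-only regions numbered 0 to 2 when 1 library was left out, reaching 2 without control replicate 2. A group left with 1 library needs a peak in that library only, which is a looser rule. The genome's share of control-only regions was not computed for these runs, so these counts have no background beside them. The count of member regions higher in limma was 2. It ranged from 0 (without either tazemetostat replicate) to 5 (without control replicate 2) on leaving out 1 library, with 1 without control replicate 1, and a lone library is assumed to vary like the other group. Of all 15383 tested regions, 0 were called higher without either tazemetostat replicate, 3237 without control replicate 1 and 8398 without control replicate 2, against 6569 with all libraries. The member count was 1 within 2 kb of the body and in the body alone, 4 per kilobase, 5 with a pseudocount of 5, 4 in edgeR with header library sizes, and 0 after median centring, in edgeR with TMM factors and in DESeq2. Of all tested regions, the fit per kilobase, the pseudocount of 5 and edgeR with header sizes called 32.9%, 48.9% and 48.5% higher, and centring, TMM factors and DESeq2 0%, 0.150% and 0.0195%. At an unadjusted p under 0.05 these last 3 fits gave 0 of 8. No member region could be tested at a local fold of at least 8. The median change of the tested member regions was -0.041 after centring, -0.016 in edgeR with TMM factors and -0.0028 in DESeq2.

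Single changes turned negative under the fits that remove the genome-wide shift. After centring these were CTH (-0.022), the CSAD main start (-0.049), SUOX (-0.033), the ETHE1 intron (-0.38), the CBS intron (-0.26) and the region downstream of MPST (-0.22). In edgeR with TMM factors they were the CSAD main start (-0.0094), SUOX (-0.022), ETHE1 (-0.33), CBS (-0.13) and MPST (-0.17), and in DESeq2 SUOX (-0.0056), ETHE1 (-0.36), CBS (-0.13) and MPST (-0.17). Same-numbered libraries did not deviate together (correlation -0.002). The fit with the replicate block gave 2 member regions higher and 0 lower, with the same median change of 0.72. Of all tested regions, that fit called 32.8% higher and 27 regions lower, and their median change was 0.70. Tazemetostat-only regions, such as those of GADL1 and CDO1, cannot be compared in level with the controls, because a library without a peak has no value there. Each group had only 2 libraries.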
